A study of Mus musculus with 273 samples.

Results

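The daily rhythm of miRNA hairpin levels was compared between right cerebral cortex and liver of wild-type C57BL/6J mice, an inbred laboratory strain, all male and aged 26 weeks. All libraries of these tissues were used: 78 from cortex and 77 from liver, or 155 of the 273 in the series. Mice were sampled every 3 h over 36 h, at 13 time points. Zeitgeber time (ZT), which counts hours from lights on by convention, was taken as the time point within a 24 h day; the lighting and feeding schedules were not given in the sources used here. Each tissue had 12 libraries at each of ZT0, ZT3, ZT6, ZT9 and ZT12, except for 11 in liver at ZT9, and 6 at each of ZT15, ZT18 and ZT21. The animals carried no transgene or treatment in the labels. A code in the labels, not defined there, was taken as the animal. It links 77 mice to a library of both tissues.

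MicroRNAs are short RNAs cut from hairpin transcripts, and they repress messenger RNAs that pair with their seed, the bases near the 5′ end. The circadian clock is a loop in which the CLOCK and BMAL1 proteins switch on the Per and Cry genes, whose products then shut CLOCK and BMAL1 off. Most tissues hold such a clock. In liver, daily cycles of feeding and metabolism also drive many transcripts, whereas cortex follows mainly the cycle of sleep and waking.

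A 24 h cosine curve was fitted to each tissue in a single model, and the difference in rhythm was the test of the interaction of tissue with the cosine and sine terms. The size of a curve is its peak-to-trough log2 ratio, given with its standard error (SE), and its phase is the ZT of the peak. An adjusted p is from edgeR's quasi-likelihood test with Benjamini-Hochberg adjustment over all 372 hairpins tested, and a hairpin was called where it was under 0.05. Levels are given as CPM, the counts of a hairpin per 1000000 hairpin counts of the library. Rhythm differed between the tissues for 5 hairpins, 1.34% of those tested: miR-29b-1, miR-150, miR-376b, miR-142a and miR-379. In all 5 the larger curve was that of liver, and none of the 5 cortex curves was called.

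Mature sequences of these hairpins, from the RefSeq table for GRCm38.p6, show the bases that pair with targets. Of miR-150 only the 3p arm is given, since the source used here held no 5p arm, so its 5p seed is neither shown nor compared. Of miR-376b and miR-379 1 arm each is given. Each runs 5′ to 3′ with the seed (bases 2 to 8) in capitals. The miR-29 family is shown whole on its 3p arm because only the copy at 29b-1 was called.
miR-29b-3p, from both the 29b-1 and the 29b-2 hairpin: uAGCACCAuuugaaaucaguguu
miR-29a-3p: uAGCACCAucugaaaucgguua
miR-29c-3p: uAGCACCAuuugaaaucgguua
miR-29b-1-5p: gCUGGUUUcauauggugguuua
miR-29b-2-5p: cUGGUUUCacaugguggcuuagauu
miR-150-3p: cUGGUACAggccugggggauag
miR-142a-5p: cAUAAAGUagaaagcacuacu
miR-142a-3p: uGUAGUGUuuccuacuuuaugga
miR-376b-3p: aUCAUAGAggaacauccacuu
miR-379-5p: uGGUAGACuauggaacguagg
The 3p arms of the miR-29 family share the seed AGCACCA, so they recognise the same target sites. The seeds of miR-150-3p, of both arms of miR-142a, of miR-376b-3p and of miR-379-5p differ from it and from each other. Counts are given per hairpin and not per arm, so the arms could not be told apart in these data.

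Library totals ran from 1164449 to 4980887 counts in cortex, with a median of 3119447.5, and from 1988671 to 5236177 in liver, with a median of 2920409. A count of 0 allows up to 3 counts, or 0.602 to 2.58 CPM in cortex and 0.573 to 1.51 CPM in liver, counting error only. Hepatocyte marker hairpins summed to a median of 410400 CPM in liver and 5951 CPM in cortex, and the 14 neuron marker hairpins to 24570 CPM in cortex and 18.98 CPM in liver, where 8 of the 14 had a count. Cortex ZT9 replicate 9, Cortex ZT15 replicate 1 and Liver ZT9 replicate 4 stood apart from the other libraries of their tissue. Without them the same 5 hairpins were called for a difference. Cortex libraries fell in 9 library runs (stretches of consecutive library numbers with a common code) and liver libraries in 5 others. The level difference between tissues and the run therefore cannot be told apart, but run could enter the model of the rhythm as a term, and 4 of the 5 hairpins, all but miR-379, were then called.

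Of all 372 hairpins, 277 had the larger fitted curve in liver and 95 in cortex. The median size was 0.21 in liver and 0.10 in cortex on the log2 scale. The fitted difference curve had a median size of 0.28 against a median SE of 0.22. A size is never negative and grows with noise, so a hairpin with few counts in a tissue tends to have a larger fitted curve there. At an unadjusted p under 0.05 there were 58 hairpins (15.6%). Within liver 24 hairpins (6.45%) were called rhythmic and 75 (20.2%) had an unadjusted p under 0.05, and within cortex these were 10 (2.69%) and 20 (5.38%). A curve averaged over the tissues was called for 9 (2.42%). A call in liver and none in cortex is no test of a difference, and 19 of the 24 liver calls had no called difference.

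**Figure D1:**
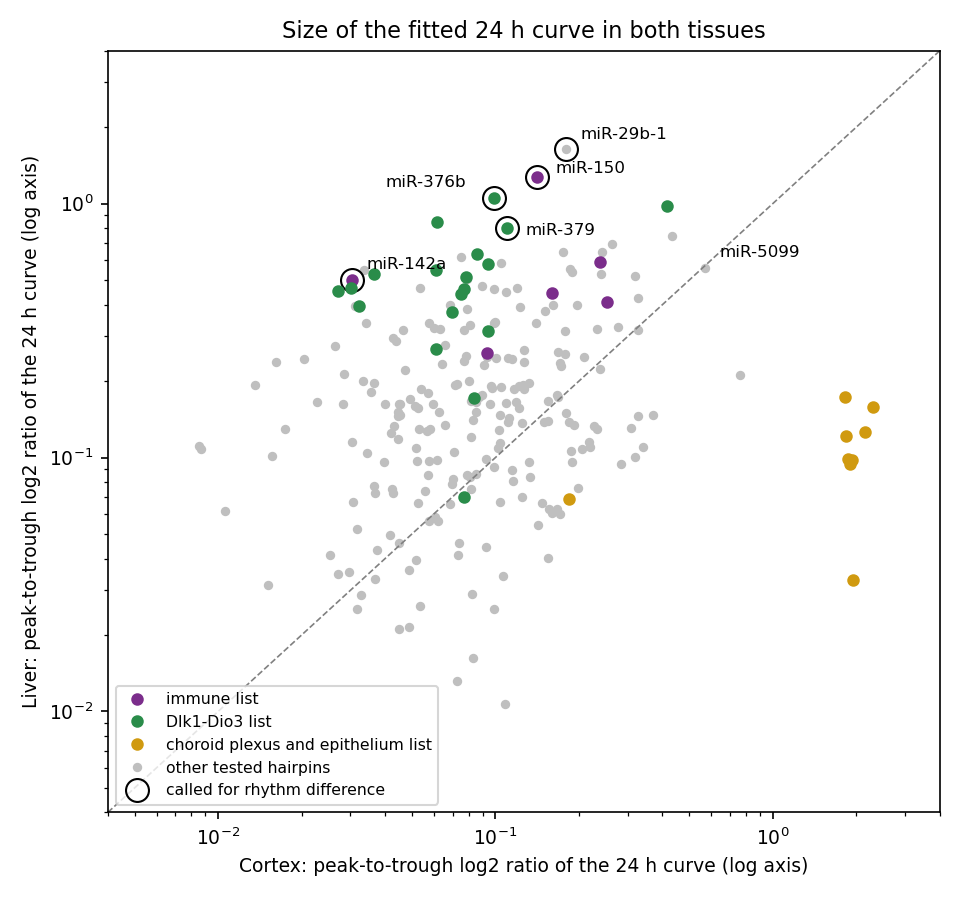
Size of the fitted 24 h curve in liver (y axis) against cortex (x axis), as peak-to-trough log2 ratios on log axes, for the 250 tested hairpins with a mean of at least 1 CPM in both tissues. Points above the dashed diagonal (181 of 250) have the larger curve in liver, circles mark the 5 called hairpins, and the choroid plexus and epithelium list (gold) lies mostly at the far right.

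The strongest difference was that of miR-29b-1, whose family represses collagens and other matrix proteins. Its hairpin lies on chromosome 6 from 31063023 to 31063093 (GRCm38, minus strand), in an exon of the long non-coding RNA Gm27019. In liver its level rose and fell about 3.12-fold over the day. The median (lowest to highest) was 2.97 CPM (0.928 to 4.94) at ZT0, 5.26 (1.92 to 9.09) at ZT3, 6.81 (3.62 to 9.57) at ZT6 and 7.19 (3.96 to 13.8) at ZT9. It then went down to 4.70 CPM (3.33 to 6.30) at ZT12, 3.75 (1.27 to 5.11) at ZT15, 2.53 (1.83 to 3.77) at ZT18 and 1.51 (0.761 to 3.97) at ZT21. The high values were those of the day from ZT3 to ZT12 and the low ones those of ZT18 to ZT0, and the libraries at ZT9 and ZT21 overlapped by a single pair of near-equal values.

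In cortex the medians of miR-29b-1 stayed between 10.26 CPM at ZT21 and 13.9 CPM at ZT18, with single libraries from 6.24 to 21.9 CPM, and every ZT group overlapped every other. The liver curve had a size of 1.64 ± 0.17 (SE) with its peak at ZT7.78 ± 0.34 h (edgeR adjusted p = 3.746e-15). The cortex curve had a size of 0.18 ± 0.13 (edgeR adjusted p = 0.996). The difference curve had a size of 1.46 ± 0.21 (edgeR adjusted p = 1.406e-07), and the liver size exceeded the cortex size by 1.46, with a 95% interval from 1.05 to 1.87.

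The rise after ZT0 came back on the second day. Liver medians were 2.45 CPM at 0 h, 7.43 at 6 h and 7.04 at 9 h, and again 3.42 at 24 h, 6.81 at 30 h and 7.27 at 33 h. Fitted on 0 to 21 h alone the difference was 1.59 (edgeR adjusted p = 0.000127), and on 15 to 36 h alone 1.31 (edgeR adjusted p = 0.000254). Both spans hold the same libraries at 15, 18 and 21 h, so these fits are not independent. The low values at ZT15, ZT18 and ZT21 had no second day. Within each of the 4 liver runs with at least 14 libraries the curve had a size of 1.91, 1.23, 1.46 and 1.28, with peaks at ZT7.77, ZT7.58, ZT8.1 and ZT8.28. This call held in every alternative in which the hairpin was tested. It was not tested where a mean of at least 10 CPM in both tissues was required, and its liver curve was not tested where each tissue was filtered and fitted on its own. Its liver mean was 4.86 CPM ± 2.49 (SD, n = 77), or 14.4 counts per library, so single libraries were imprecise.

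The other members of the miR-29 family showed no such difference. miR-29a lies 276 bases from miR-29b-1 in the same cluster (chromosome 6, 31062660 to 31062747) and was far more abundant, at 20214 CPM in cortex and 3774 CPM in liver. Its difference curve had a size of 0.06 ± 0.06 (edgeR adjusted p = 0.868), and its liver size differed from its cortex size by between -0.11 and 0.122 (95% interval). miR-29c, at 568.7 CPM in liver, gave a difference of 0.11 ± 0.09 (edgeR adjusted p = 0.825), and miR-29b-2, at 3.06 CPM in liver, 0.13 ± 0.19 (edgeR adjusted p = 0.962). Both lie on chromosome 1. In the printed sequences the 29b-1 and 29b-2 hairpins give an identical 3p arm, and how reads that match both were counted is not stated in the sources used here. The counts of these copies are therefore uncertain, and which reads make up the miR-29b-1 count could not be examined.

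**Figure D2:**
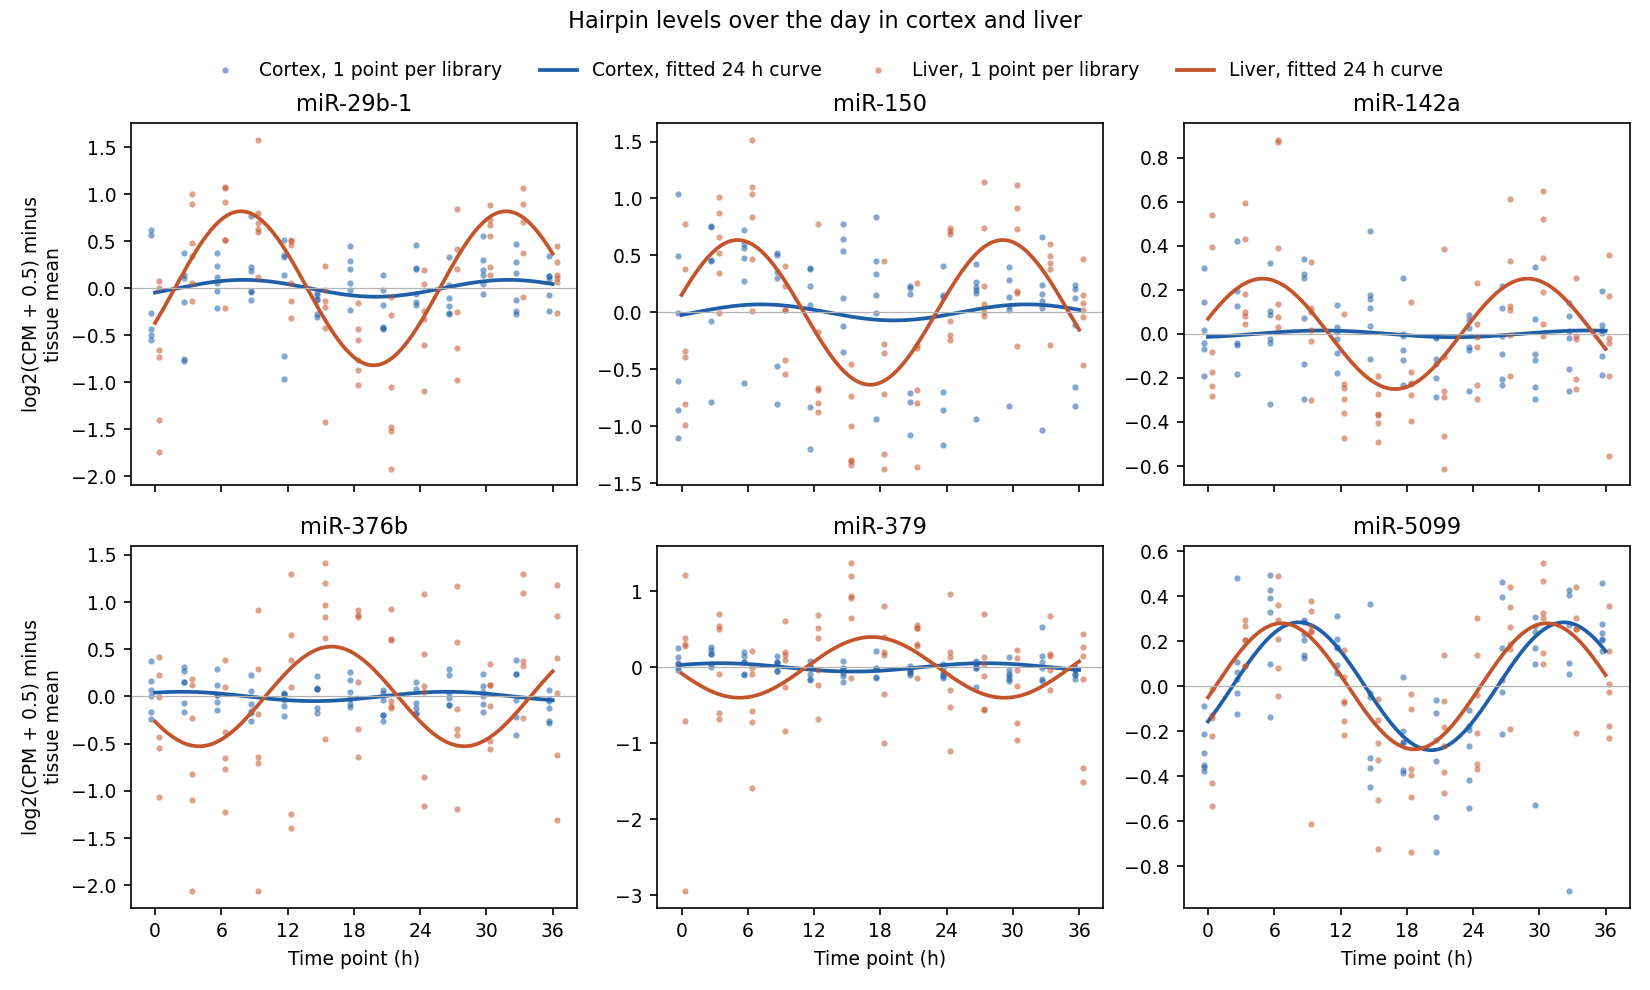
Level of 6 hairpins in each library, as log2(CPM + 0.5) minus the mean of its tissue (y axis), against time point in hours (x axis), with the fitted 24 h curve of cortex (blue) and liver (orange). The liver curve is the larger for the 5 hairpins called for a difference, and both curves rise and fall together for miR-5099.

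Next came miRNAs known from blood cells. miR-150 is abundant in mature lymphocytes and represses the transcription factor MYB. Its hairpin lies on chromosome 7 from 45121757 to 45121821, outside annotated genes. In liver its median (lowest to highest) was 106.0 CPM (58.4 to 199.4) at ZT0, 157.9 (113.5 to 258.5) at ZT3, 200.8 (94.96 to 333.8) at ZT6 and 136.3 (79.7 to 176.5) at ZT9. The medians at the later times were 108.5 CPM (63.1 to 199) at ZT12, 52.5 (45.5 to 85.1) at ZT15, 80.7 (44.7 to 159) at ZT18 and 83.0 (45.2 to 139) at ZT21. All 6 libraries at ZT15 were below all 12 at ZT6, times picked here as those of the lowest and the highest median.

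Cortex held far more miR-150, at 3256 CPM ± 1150 (SD, n = 78). Its ZT medians ran from 2512 CPM at ZT0 to 3847 CPM at ZT15, and all ZT groups overlapped. The liver curve had a size of 1.27 ± 0.18 with its peak at ZT5.08 ± 0.48 h (edgeR adjusted p = 7.393e-08), a 2.41-fold change, against 0.14 ± 0.17 in cortex. The difference was 1.15 ± 0.25 (edgeR adjusted p = 0.00426). Within the 4 larger liver runs the size was 1.23, 0.903, 1.58 and 1.22, with peaks from ZT4.04 to ZT5.8. The call was lost without the 15 h time point (size 0.86, edgeR adjusted p = 0.209).

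miR-142a is made in all blood lineages and is known to repress Bmal1, a core clock gene. Its hairpin lies on chromosome 11 from 87756864 to 87756927, in an intron of its host RNA Mir142hg, and the antisense hairpin miR-142b had 0 counts in liver against 309821 for miR-142a. Liver medians were 1257 CPM (1075 to 1918) at ZT0, 1431 (1156 to 2016) at ZT3, 1591 (1312 to 2432) at ZT6 and 1313 (1070 to 1656) at ZT9. They were lower from ZT12 on, at 1141 CPM (899 to 1690), 1024 (937.9 to 1154) at ZT15, 1128 (1004 to 1461) at ZT18 and 1092 (863.6 to 1722) at ZT21. As with miR-150, no library at ZT15 reached the lowest one at ZT6.

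The miR-142a curve had a size of 0.50 ± 0.09 in liver with its peak at ZT4.94 ± 0.60 h (edgeR adjusted p = 1.673e-05) and 0.03 ± 0.08 in cortex, where medians stayed between 467.4 CPM at ZT21 and 560.7 CPM at ZT15. The difference was 0.50 ± 0.12 (edgeR adjusted p = 0.0273), a 1.42-fold swing in liver against 1.02-fold in cortex. It missed the threshold without the 15 h time point (edgeR adjusted p = 0.286), without 6 h (0.0983) or 30 h (0.0860), on 0 to 21 h alone (0.0995), with no filter on low counts (0.0647) and with a 12 h harmonic added (0.0537). In the larger liver runs the size was 0.731, 0.359, 0.667 and 0.393.

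The ratio of cortex to liver was also taken within each animal and compared between animals of different ZT, since each animal had 1 time point. The ZTs named are those of the highest and the lowest liver median. For miR-29b-1 the median difference of log2(CPM + 0.5), cortex minus liver, was 0.84 (0.11 to 1.60) over 11 animals at ZT9 and 2.30 (1.15 to 3.21) over 6 animals at ZT21. For miR-150 it was 4.32 (2.75 to 5.41) over 12 animals at ZT6 and 6.11 (4.80 to 6.77) over 6 at ZT15. From ZT0 to ZT12 the miR-150 medians lay between 4.30 and 4.77. For miR-142a, the only one of the 3 with more in liver, it was -1.70 (-2.29 to -1.41) at ZT6 and -0.82 (-1.29 to -0.54) at ZT15, and these last groups did not overlap. With each animal as a block the calls of miR-29b-1, miR-150 and miR-142a held.

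**Figure D3:**
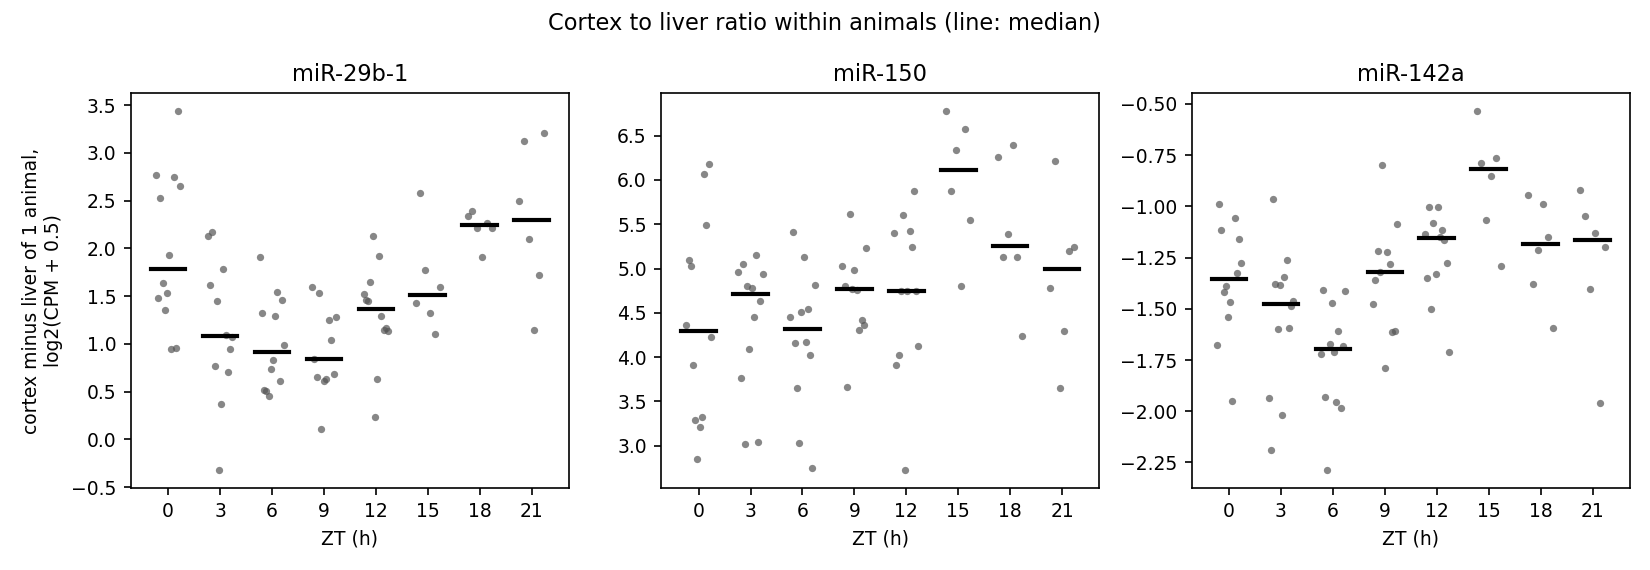
Cortex minus liver within 1 animal, as a difference of log2(CPM + 0.5) (y axis), by ZT (x axis), for 77 animals with both libraries; each point is an animal and each line a median. The medians of miR-29b-1 are lowest at ZT9 (0.84) and highest at ZT21 (2.30), and those of miR-150 and miR-142a are highest at ZT15.

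All 6 tested hairpins of the immune list had over 10 CPM in liver. Of these, 2 were called for a difference (1.34% of all hairpins), 3 had an unadjusted p under 0.05 (15.6%), 4 were called in liver (6.45%) and none in cortex (2.69%). The 6 all had the larger curve in liver, against 277 of all 372 hairpins, and the median difference was 0.52 against 0.28. The list holds the called miR-150 and miR-142a and was chosen with earlier results of these data known. These shares therefore only describe it. miR-223, a miRNA of granulocytes and other myeloid cells, had a liver curve of 0.59 ± 0.12 with its peak at ZT4.77 (edgeR adjusted p = 0.000717) and a difference of 0.54 ± 0.17 (edgeR adjusted p = 0.124). miR-342, made from an intron of Evl and abundant in lymphocytes, had a liver curve of 0.44 ± 0.11 with its peak at ZT6.39 (edgeR adjusted p = 0.0113) and a difference of 0.29 ± 0.15 (edgeR adjusted p = 0.496). The differences of the inflammation-linked miR-146a, at 0.59 ± 0.26, and miR-155, at 0.26 ± 0.23, were not called (edgeR adjusted p = 0.403 and 0.850).

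The red cell list was measured beside them because blood reaches both tissues. None of its 4 tested hairpins was called for a difference, and none had an unadjusted p under 0.05. miR-451a, the main miRNA of red cells, was called in liver (0.53 ± 0.15, peak ZT9.36, edgeR adjusted p = 0.0269) with a difference of 0.45 ± 0.22 (edgeR adjusted p = 0.444), and its partner in the same cluster, miR-144, had a liver curve of 0.07 ± 0.13. A single library, Liver ZT9 replicate 4, had 6444 CPM of miR-451a against a liver median of 794.5 CPM. Without its animal miR-451a was not called in liver and its difference was 0.18 (edgeR adjusted p = 0.835). The differences of miR-486a and miR-486b, also of red cells, were 0.11 ± 0.19 and 0.53 ± 0.27 (edgeR adjusted p = 0.977 and 0.467). Summed immune hairpins in liver had a median of 2487 CPM (1938 to 5066) and a fitted curve of 0.33 peaking at ZT6.14. Summed red cell hairpins had a median of 1007 CPM (619 to 6966) and a curve of 0.33 peaking at ZT7.64, which includes Liver ZT9 replicate 4 at 6966 CPM. The next highest liver library had 2134.5 CPM. Of the immune list, miR-150 and miR-342 had more in cortex (3256 and 1479 CPM) than in liver (129.9 and 64.7 CPM). The levels of miR-142a, miR-223, miR-146a and miR-155 were higher in liver. Which cells these hairpins came from was not tested. In tissue RNA a change in the number of blood cells, a change of RNA within them and a change in other cells cannot be told apart. The part of each in these curves was not tested.

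The remaining called hairpins, miR-376b and miR-379, belong to the Dlk1-Dio3 region, an imprinted cluster whose miRNAs are made from the maternal chromosome and are abundant in brain. They lie on chromosome 12, miR-379 from 109709060 to 109709125 and miR-376b from 109723458 to 109723539. Both were scarce in liver, at 3.77 CPM ± 1.82 and 1.90 CPM ± 1.24 (SD, n = 77), against 519.7 and 754.2 CPM in cortex. This is 11.2 and 5.65 counts per liver library, and miR-376b lies near the limit that a count of 0 allows.

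In liver miR-376b had medians from 1.22 CPM (0 to 4.19) at ZT3 to 3.43 (1.02 to 5.09) at ZT15, with 2 of 77 libraries at 0. The ranges of all ZT groups overlapped. Its liver curve had a size of 1.06 ± 0.23 with its peak at ZT16.0 (edgeR adjusted p = 0.0022), against 0.10 ± 0.11 in cortex, and the difference was 1.15 ± 0.26 (edgeR adjusted p = 0.00913). miR-379 had liver medians from 2.96 CPM (0.788 to 4.004) at ZT6 to 6.85 (2.99 to 9.54) at ZT15. Its liver curve was 0.80 ± 0.19 with its peak at ZT17.2 (edgeR adjusted p = 0.00648), against 0.11 ± 0.12 in cortex, and the difference was 0.90 ± 0.23 (edgeR adjusted p = 0.0360).

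Both calls depended on the settings. That of miR-379 was lost under each other scaling, with edgeR adjusted p-values of 0.0589 with DESeq2 size factors, 0.0740 with library totals and 0.0777 with TMM within each tissue. It was also lost with no filter (0.102), with a 12 h harmonic (0.0537), with library run as a term (0.179) and with limma voom (limma adjusted p = 0.153), and without any 1 of the 3, 6, 9, 21 and 30 h time points. It held with the DESeq2 test. That of miR-376b held in these but was lost with ZT as a factor (0.0572), without 3 h (0.0923) and without 6 h (0.0690). With each animal as a block neither was called (edgeR adjusted p = 0.142 for miR-376b and 0.222 for miR-379). Without the 15 h time point the difference of miR-376b was 0.97 (edgeR adjusted p = 0.209) and that of miR-379 fell from 0.90 to 0.54 (edgeR adjusted p = 0.506). From 15 to 36 h alone they were 0.80 and 0.82, with edgeR adjusted p-values of 0.296 and 0.202. In the larger liver runs the fitted peak of miR-376b ranged from ZT14.7 to ZT19 in 3 runs and was at ZT0.227 in the other. For miR-379 the larger runs without a 15 h library had sizes of 0.4 and 0.154 and peaks at ZT21.1 and ZT21.7. Those with 15 h libraries had sizes of 0.854 and 0.555 and peaks at ZT14.5 and ZT16.8.

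The rest of the cluster was scarce in liver as well. Of 45 hairpins of the list, 43 were tested: 24 had a liver mean under 1 CPM, 13 had 1 to 10 CPM and 6 had at least 10 CPM. Over the 43, 2 were called for a difference (1.34% of all hairpins), 14 had an unadjusted p under 0.05 (15.6%), 10 were called in liver (6.45%) and none in cortex (2.69%). At so few liver counts these numbers describe the hairpins that passed the filter and support no statement on the cluster. The 10 liver calls became 6 with DESeq2 size factors or TMM within each tissue, 4 with library totals, 8 with the DESeq2 test, 4 with voom, 2 with library run as a term and 12 for 0 to 21 h alone. Without the animal of Liver ZT15 replicate 4 there were 5, and without that of Liver ZT15 replicate 3 there were 6. With each tissue filtered and fitted on its own 9 members were tested and 0 called. Where a mean of at least 10 CPM in both tissues was required, 6 members were tested. Of these 4 were called in liver, against 17 of 161 of all hairpins. In liver 6 of 6 peaked between ZT12 and ZT20, against 49 of 161. In the fit as reported 34 of 43 members peaked there, against 185 of 372 hairpins. With library totals it was 32 of 43 against 96 of 372, and without the 15 h time point 25 of 43 against 203 of 372. Both shares thus moved with the settings. The window holds the liver peaks of both called members, and 24 of the 43 had under 1 CPM in liver. These shares therefore only describe the hairpins that passed the filter. miR-127, the most abundant of the cluster, had 328.4 CPM in liver and a curve of 0.44 ± 0.10 peaking at ZT16.3 (edgeR adjusted p = 0.0022), with a difference of 0.44 ± 0.13 (edgeR adjusted p = 0.0984). miR-411 and miR-541 had liver curves of 0.46 ± 0.12 and 0.58 ± 0.14 with peaks at ZT16.1 and ZT16.4, while miR-434, at 47.6 CPM, had one of 0.17 ± 0.12 (edgeR adjusted p = 0.715).

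Summed over the list, liver had 445.2 CPM at 9 h, 748.8 at 12 h, 853.2 at 15 h and 662.1 at 18 h (medians). On the second day the sum was 664.4 CPM at 33 h and 514.7 at 36 h, so the level of 12 h did not return at 36 h. The 6 libraries at 15 h ran from 721.8 to 1130 CPM, and their ZT had no second day. Without 15 h no member was called in liver, and from 15 to 36 h alone none was. Of the 4 larger liver runs 2 held no 15 h library, and the fitted peak of the sum was at ZT17.7 and at ZT3.8 in these, with peaks at ZT16 and ZT15.4 in the others. The summed neuron markers in liver had a median of 17.82 CPM at ZT15 and 20.5 CPM at ZT6. They were scarce there, at 18.98 CPM over all liver libraries, with a count for 8 of 14. What lies behind the liver sum of the cluster was not tested. Cortex, with 334600 CPM for the same list, had a summed curve of 0.02.

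**Figure D4:**
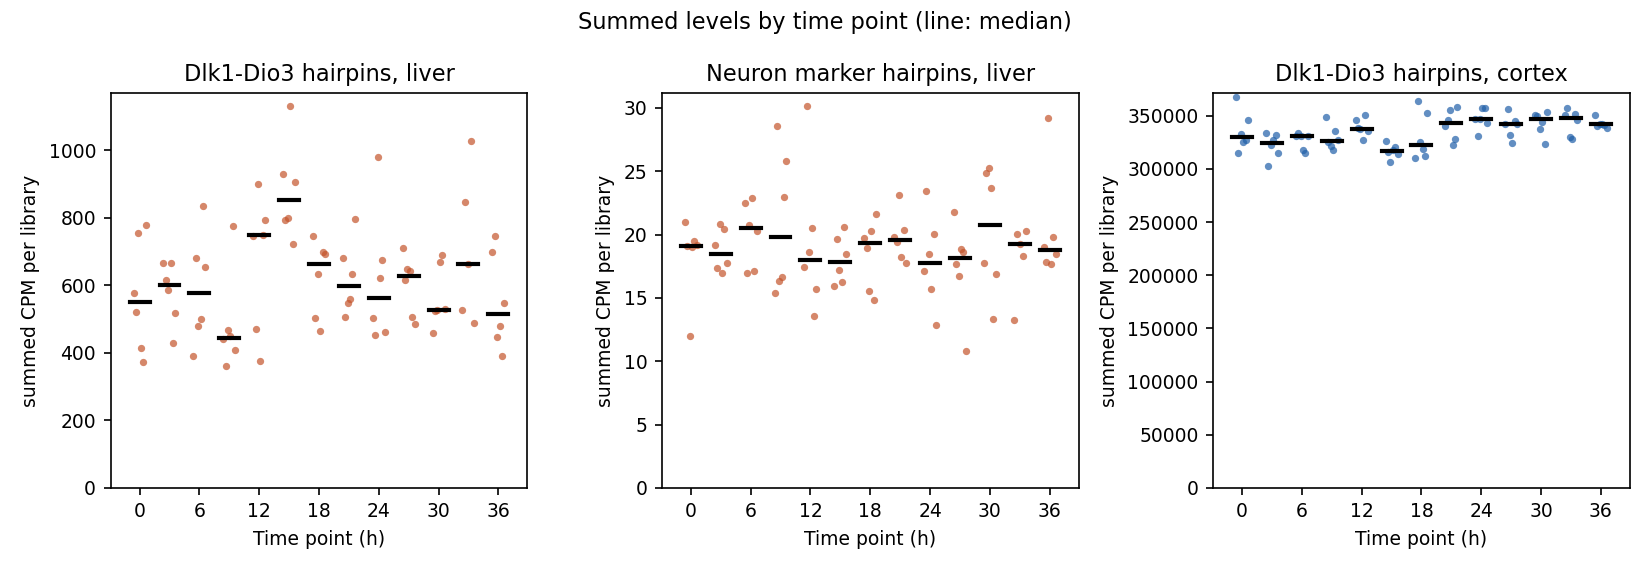
Summed CPM per library (y axes start at 0) by time point in hours (x axis) for the Dlk1-Dio3 list in liver, the neuron markers in liver and the Dlk1-Dio3 list in cortex; lines are medians. The median of the liver sum is highest at 15 h (853.2 CPM). Medians of the scarce neuron markers lie between 17.79 and 20.74 CPM, and the cortex sum lies near 334600 CPM.

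A rhythm was present in both tissues for miR-5099. Its hairpin lies on chromosome 12 from 36816205 to 36816278, outside annotated genes, and is printed here whole because its curve was alike in both tissues.
miR-5099 hairpin: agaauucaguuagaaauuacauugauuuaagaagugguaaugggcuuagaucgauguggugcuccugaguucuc
In cortex its median (lowest to highest) was 66.2 CPM (55.2 to 75.7) at ZT0, 96.1 (55.7 to 113.6) at ZT6, 92.9 (83.8 to 110.9) at ZT12 and 67.7 (61.5 to 82.9) at ZT18. In liver it was 262.5 CPM (204.6 to 365.4) at ZT0, 364.4 (287.2 to 433.7) at ZT6, 286.8 (252.6 to 379.6) at ZT12 and 227.4 (177.4 to 289.3) at ZT18. Cortex was still high at ZT12, when liver had passed its peak.

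The miR-5099 curve had a size of 0.57 ± 0.08 in cortex with its peak at ZT8.22 ± 0.52 h (edgeR adjusted p = 2.836e-07) and of 0.56 ± 0.08 in liver with its peak at ZT6.68 ± 0.50 h (edgeR adjusted p = 1.464e-07). The liver size differed from the cortex size by between -0.23 and 0.22 (95% interval), and the liver peak was 1.55 h earlier, with an interval from -2.95 to -0.136 h. The joint test of size and phase was not called (difference 0.23 ± 0.11, edgeR adjusted p = 0.428). The averaged curve had the smallest p of all hairpins (0.55, peak ZT7.45, edgeR adjusted p = 1.198e-13). The cortex, liver and averaged curves of miR-5099 were called in every alternative run. The averaged curve was also called for miR-29b-1 and miR-150, whose cortex curve was not, so that call alone does not show a rhythm in both tissues.

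In cortex the other 9 called hairpins all belonged to the choroid plexus and epithelium list: miR-200a, miR-200b, miR-200c, miR-141 and miR-429 (the miR-200 family of epithelial cells), miR-182, miR-183 and miR-96 (a cluster of sensory cells and of some other epithelia), and miR-211. Of 13 tested list members, 9 had an unadjusted p under 0.05 for the difference (15.6% of all hairpins) and none was called. miR-204, the list's most abundant member in cortex at 5683 CPM and a main miRNA of choroid plexus, had a cortex curve of 0.31 ± 0.18 (edgeR adjusted p = 0.996), and its highest library was Cortex ZT0 replicate 1 at 41840 CPM. miR-200b had a cortex curve of 1.83 ± 0.37 peaking at ZT17.0 and a liver curve of 0.12 ± 0.33, with a difference of 1.74 ± 0.51 (edgeR adjusted p = 0.0934). Cortex medians of miR-200b and miR-183 were highest at ZT21, at 61.4 and 236.7 CPM, but the highest single values came from few libraries. At ZT15 the cortex median of miR-200b was 22.8 CPM with the highest library at 961.9, and at ZT9 the median was also 22.8, with the highest at 56.2. For miR-183 the ZT15 median was 47.1 CPM and the highest 2227. Both highest values were in Cortex ZT15 replicate 1. Leaving out that animal left 2 cortex calls, miR-5099 and miR-211, and leaving out the 3 libraries that stood apart left miR-5099 alone. The summed list ran from 4557 to 45440 CPM over the cortex libraries.

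Among the hairpins next in order of p, none called, miR-874 had a liver curve of 0.32 ± 0.07 peaking at ZT11.6 and a difference of 0.36 ± 0.09 (edgeR adjusted p = 0.0522). miR-23b, in an intron of 2010111I01Rik, had a liver curve of 0.23 ± 0.06 peaking at ZT12.4 and a difference of 0.28 ± 0.08 (edgeR adjusted p = 0.0934). miR-24-1, from the same cluster, had one of 0.64 ± 0.19 peaking at ZT7.6, with a difference of 0.80 ± 0.23 (edgeR adjusted p = 0.0934). miR-185 had a liver curve of 0.32 ± 0.07 peaking at ZT13.7 and a difference of 0.33 ± 0.10 (edgeR adjusted p = 0.105). miR-299a and miR-369, also of the Dlk1-Dio3 region, had differences of 0.86 ± 0.24 and 1.39 ± 0.41 at 2.05 and 1.24 CPM in liver. miR-219a-2 and miR-135b had means of 0.042 and 0.019 CPM in liver, under the limit of a count of 0, and no curve is given for them there.

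The clock-linked list, miRNAs that have been tied to clock genes or to daily cycles in other work, had 31 tested members. Of these 2 were called for a difference (1.34% of all hairpins), miR-29b-1 and miR-142a, and 9 had an unadjusted p under 0.05 (15.6%). In liver 5 were called (6.45%), among them miR-219a-2 with 9 counts in all and 69 of 77 liver libraries at 0, a call that says nothing of a rhythm. In cortex 3 were called (2.69%), miR-96, miR-182 and miR-183. The median difference of the list was 0.25, against 0.28 over all hairpins.

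Of the 3 most abundant miRNAs of each tissue, none but miR-127 was called in either tissue. miR-192, the most abundant in liver at 291461 CPM, had a liver curve of 0.17 ± 0.07 and a difference of 0.19 ± 0.09 (edgeR adjusted p = 0.451), and the liver-rich miR-148a a difference of 0.12 ± 0.12 (edgeR adjusted p = 0.905). miR-22 and miR-30a, abundant in both tissues, each had a difference of 0.10 ± 0.08 (edgeR adjusted p = 0.774 and 0.835). None of the 5 hepatocyte, 10 neuron, 3 vessel, 3 oligodendrocyte and 12 let-7 hairpins tested was called for a difference. Their unadjusted p was under 0.05 for 0, 1, 0, 1 and 2 of them (15.6% of all hairpins), and the oligodendrocyte one is miR-219a-2, too scarce in liver to be read. The oligodendrocyte miR-338 had a difference of 0.21 ± 0.10 (edgeR adjusted p = 0.459). The neuronal miR-128-1 and miR-128-2 are at 8.22 and 0.358 CPM in liver, so their liver curves were imprecise (0.34 ± 0.13 and 0.38 ± 0.46). The vessel miR-126a and miR-143 gave differences of 0.11 ± 0.08 and 0.20 ± 0.12 (edgeR adjusted p = 0.736 and 0.560). let-7g and let-7i gave 0.18 ± 0.09 and 0.09 ± 0.06 (edgeR adjusted p = 0.434 and 0.736).

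**Figure D5:**
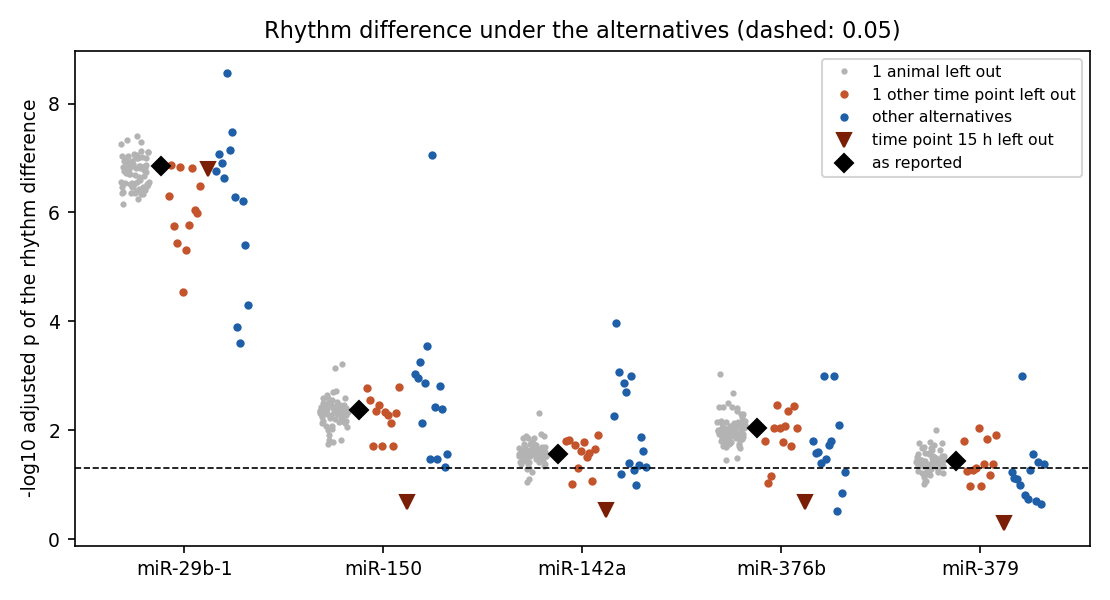
Negative log10 of the edgeR, DESeq2 or limma adjusted p of the rhythm difference (y axis) for the 5 called hairpins (x axis), as reported (diamond), with 1 animal left out (grey), with 1 time point left out (orange, with 15 h as a triangle) and under the other alternatives (blue); the dashed line is 0.05. miR-29b-1 lies above the line throughout, and the triangles of the other 4 lie under it.

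The number of called differences depended on the time points. It was 1 (miR-29b-1) without 15 h, 2 without 6 h, 8 without 0 h, 10 without 18 h, 13 without 36 h and 15 without 27 h, and 22 when 0 to 21 h alone was fitted. With ZT as a factor in place of the curve 14 hairpins were called, 4 of them among the 5.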

How the data were processed

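Small RNA libraries were made from total RNA extracted with the Qiagen miRNeasy kit, per the labels' protocols. The deposited tables hold the authors' raw read counts of 1226 miRNA hairpins in each library. The build was GRCm38 (mm10), and the tools were HTSeq 0.10.0 and STAR 2.7.3a, per the submitters' processing notes. Trimming, strand and the treatment of multiply matching reads are not given in the sources used here, so counts of hairpins with identical arms are uncertain. Of the 1226, 974 had a count in cortex or liver and 372 passed filterByExpr. edgeR 4.0.16 (R 4.3.3) with TMM scaling fitted tissue, the cosine and sine of a 24 h period and their interactions over 155 libraries, with a quasi-likelihood F test on 2 degrees of freedom and Benjamini-Hochberg adjustment. TMM factors ran from 1.73 to 2.16 in cortex and from 0.416 to 0.575 in liver, and over the day they moved by 0.03 in cortex and 0.11 in liver (log2 peak to trough). CPM used plain library totals. SEs of size and phase are by the delta method.

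Groups came from the tissue and time in the labels. No pair of libraries within a group agreed within sampling noise (739 pairs, lowest chi-square per degree of freedom 12.4). The code taken as the animal differs for each library of a tissue, but the labels do not define it. This code pairs 77 cortex and liver libraries, and title replicate numbers match for only 11 of them. Deviations of the libraries of 1 animal from the fitted 24 h curve of their tissue had a median correlation of -0.02 over 161 hairpins. It ran from -0.42 to 0.38, with 18 animals over 0.1, and the median between animals was 0.0023. The own liver library was the best match for 1 of the 77 animals. These deviations thus give no check of the code. The alternatives were other scalings and filters, DESeq2 1.42.0, limma 3.58.1 (voom), library run as a term, a 12 h harmonic, single days, left-out time points, libraries and animals, ZT as a factor, and an animal block.

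The hairpins and lists were chosen with earlier results of these data known. Named are the called hairpins, the next by p up to 20 in all, the tested immune, red cell and miR-29 lists, the 5 smallest p of the averaged curve, the 3 most abundant hairpins of each tissue, and from the other lists the called and the 2 most abundant members; miR-182, miR-200a, miR-141, miR-429 and miR-211 were added after their values were seen, to name the cortex calls. By name 356 of 372 tested hairpins matched a RefSeq gene. Python 3.11.15 with pandas 2.3.3 and matplotlib 3.10.9 made tables and plots.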

Additional observations from a re-analysis of the deposited data

Results flagged for a closer look

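The 5 rhythm differences between cortex and liver passed the interaction test itself, with difference curves of 1.4606 for miR-29b-1, 1.154 for miR-150, 1.1469 for miR-376b, 0.4972 for miR-142a and 0.8997 for miR-379 (peak-to-trough log2 ratio). Over the 5 called hairpins and miR-5099, 36 groups of 6 libraries were checked. Of these 2 held a library far from the other 5, and chance gives about 1 in 20. For miR-142a, Liver ZT18 replicate 1 had 1460.7 CPM, with the next library at 1171.9 CPM. For miR-379, Cortex ZT18 replicate 5 had 599.86 CPM, with the next at 514.67 CPM.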

How the results depend on the processing

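Where a named hairpin was called as reported or in the alternative, its curve was not reversed. Direction was not compared where neither fit was called, nor with ZT as a factor, which gives no curve. The count of called differences, 5 as reported, was 3 with no filter, 2 with a mean of at least 10 CPM in both tissues, 3 with a 12 h harmonic, 22 for 0 to 21 h and 14 with ZT as a factor. It was 8 without 0 h, 3 without 3 h, 2 without 6 h, 1 without 15 h, 10 without 18 h, 15 without 27 h, 3 without 30 h and 13 without 36 h, and from 3 to 15 with 1 animal left out. With the animal as replicate block it was 3: miR-376b and miR-379 were lost, and this changed no other call among the differences. Rhythm in cortex, 10 as reported, gave 1 with voom, 1 without the 3 libraries that stood apart and 1 with each tissue fitted on its own, and from 2 to 10 with 1 animal left out. Rhythm in liver, 24 as reported, gave 14 with voom, 13 with library run as a term, 6 for 15 to 36 h, 10 with each tissue fitted on its own and 10 without 15 h, and from 18 to 28 with 1 animal left out. The averaged curve, 9 as reported, gave 3 with no filter, 14 with DESeq2, 4 with voom, 15 with a 12 h harmonic, 25 for 0 to 21 h, 2 for 15 to 36 h and 5 without the libraries that stood apart. It gave 3 without 3 h, 4 without 6 h, 5 without 15 h, 3 without 21 h, 4 without 24 h, 16 without 27 h, 3 without 30 h and 21 without 36 h, and from 3 to 18 with 1 animal left out. The cause of these moves was not tested. miR-379 was lost in 17 and miR-142a in 4 of 78 fits that left out 1 animal, and miR-29b-1, miR-150 and miR-376b in none. Low liver counts limit miR-376b and miR-379.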
